A study of Mus musculus with 12 samples.

Results

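The cell cycle and neuroblast genes are 44 genes of dividing cells and of young migrating neurons, and they were followed here in the whole brain of mice with and without interleukin-18. They fall into 4 roles: DNA replication, regulators of mitosis, spindle and chromosome proteins, and neuroblast markers. A gene counted as measured when some probe of that name passed the scanner's test for signal well above background throughout at least 1 group of 3 arrays, and the brightest such probe stood for it. This left 41 of the 44 listed genes, among 26497 genes kept in all. The 3 others were Aurkb and Bub1, a kinase of the chromosomal passenger complex and a kinase of the spindle checkpoint, and Dlgap5, a spindle protein. They have no value here.

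The mice were BALB/c, untreated, and either wild type or interleukin-18 knockout, at 6 or 12 weeks of age, which gives 4 groups of 3 mice with 1 Agilent array each. The labels call the replicates biological and give no sex, litter or design of the knockout allele. The tissue was total RNA of whole brain, and all 12 markers of neurons, glia, vessels and choroid plexus used to check this were above background on every array. In bulk tissue, fewer dividing cells and less RNA per cell cannot be told apart.

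The adult mouse brain keeps a small number of dividing cells. Stem cells along the lateral ventricles and in the dentate gyrus produce neuroblasts, and oligodendrocyte precursors divide throughout the tissue. Replication genes act in the phase of DNA synthesis, when the Mcm helicase opens the DNA, while the mitotic and spindle genes are switched on later, and many of those are held down in resting cells by a repressor complex, DREAM, which binds the CHR motif of their promoters. CCAAT boxes, frequent in the same promoters, are bound by the activator NF-Y. E2F sites are typical of replication genes. Doublecortin (Dcx), Sox11, Sox4 and Igfbpl1 mark neuroblasts and immature neurons.

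Promoters are printed first for Mki67, Top2a, Cdk1, Rrm2 and Prc1. All but Prc1 were lower on every array at 12 weeks than on any at 6 weeks, and Prc1 also fell. Top2a was kept only through its brighter 6-week groups, so its separation follows in part from that filter. The promoter of Mcm7, a replication gene that lay higher at 12 weeks in both genotypes, is set beside these. The 6 genes were picked from their values, and whether a motif goes with the change was not tested. Each line runs 5′ to 3′ from 250 bases before the RefSeq start of the gene to 6 bases after it, from build GRCm38.p6, which is the reference genome and not the strain measured. Capitals mark matches of 3 motifs on either strand. The CHR element was searched as TTTGAA and also in its variant form, which reads TTTAAA. The second motif is the CCAAT box itself. The E2F site was searched in the form TTGGCGC and separately in the form that reads TTCCCGC.
Mki67, chr7:135716374-135716629, minus strand: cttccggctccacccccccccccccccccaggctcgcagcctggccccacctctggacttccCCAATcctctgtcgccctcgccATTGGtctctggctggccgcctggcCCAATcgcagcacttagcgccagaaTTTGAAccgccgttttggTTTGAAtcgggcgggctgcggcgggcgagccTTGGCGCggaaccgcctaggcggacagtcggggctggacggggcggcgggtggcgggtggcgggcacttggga
Top2a, chr11:99024184-99024439, minus strand: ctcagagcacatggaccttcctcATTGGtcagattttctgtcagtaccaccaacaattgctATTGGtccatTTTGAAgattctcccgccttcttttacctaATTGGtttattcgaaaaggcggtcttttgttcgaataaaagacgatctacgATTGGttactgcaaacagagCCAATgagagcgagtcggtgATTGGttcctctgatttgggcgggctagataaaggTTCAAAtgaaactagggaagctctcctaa
Cdk1, chr10:69352907-69353162, minus strand: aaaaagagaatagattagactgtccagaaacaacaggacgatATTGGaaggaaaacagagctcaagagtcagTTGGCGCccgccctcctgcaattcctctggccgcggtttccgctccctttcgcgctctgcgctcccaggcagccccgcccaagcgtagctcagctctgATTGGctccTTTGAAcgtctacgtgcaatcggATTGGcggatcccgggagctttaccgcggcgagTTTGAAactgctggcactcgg
Rrm2, chr12:24708004-24708259, plus strand: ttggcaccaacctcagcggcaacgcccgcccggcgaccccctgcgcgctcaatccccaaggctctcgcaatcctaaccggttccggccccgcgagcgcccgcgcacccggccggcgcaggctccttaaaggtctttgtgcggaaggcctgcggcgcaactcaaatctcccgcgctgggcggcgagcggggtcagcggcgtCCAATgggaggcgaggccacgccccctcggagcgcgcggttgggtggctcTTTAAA
Prc1, chr7:80294201-80294456, plus strand: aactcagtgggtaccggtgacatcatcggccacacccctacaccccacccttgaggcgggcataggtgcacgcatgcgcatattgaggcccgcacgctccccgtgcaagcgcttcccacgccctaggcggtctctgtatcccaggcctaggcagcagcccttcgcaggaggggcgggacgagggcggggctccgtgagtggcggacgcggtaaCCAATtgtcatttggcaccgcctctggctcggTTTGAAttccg
Mcm7, chr5:138171878-138172133, minus strand: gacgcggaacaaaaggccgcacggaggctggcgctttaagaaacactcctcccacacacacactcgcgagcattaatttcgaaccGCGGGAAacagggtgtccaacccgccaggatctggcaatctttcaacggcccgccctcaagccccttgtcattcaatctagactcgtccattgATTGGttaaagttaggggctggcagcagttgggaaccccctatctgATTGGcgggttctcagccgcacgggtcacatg
Mki67 holds CHR matches that begin 116 and 98 bases before the start, and Cdk1 holds them at 71 and 15 bases before it. Top2a has 6 CCAAT matches, more than any other window printed here. The only CHR match of Prc1 begins 5 bases before the start, and that of Rrm2 at the first transcribed base. The printed stretch of Mcm7 holds no CHR match but an E2F match 165 bases before the start.

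RefSeq windows of 250 bases before to 50 after the start were held for 36 of the 44 genes. A CHR match was in 25 of these 36 windows, or 69.4%, against 27.8% of the windows of all 27025 genes. By role, it was in 10 of 11 windows of spindle and chromosome genes (90.9%), 9 of 12 of mitotic regulators, 4 of 10 of replication genes (40.0%) and 2 of 3 of neuroblast genes. CCAAT was in 80.6% of the members' windows against 37.9% of all. The E2F letters were in 19.4% against 6.93%, with 40.0% among replication genes, the role with the highest share. A CHR match together with at least 2 CCAAT matches was in 36.1% of the members' windows and 3.25% of all. Of the 12 E2F matches 2 overlapped a CCAAT match, and of the 33 CHR matches 1 overlapped another motif. Members with a higher mean at 12 weeks over both genotypes also held CHR matches: Mcm2, Mcm5, Aurka and Cdc20. Mcm6, like Mcm7, had a higher mean and held none. These are matches of letters, not measured sites.

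**Figure D1:**
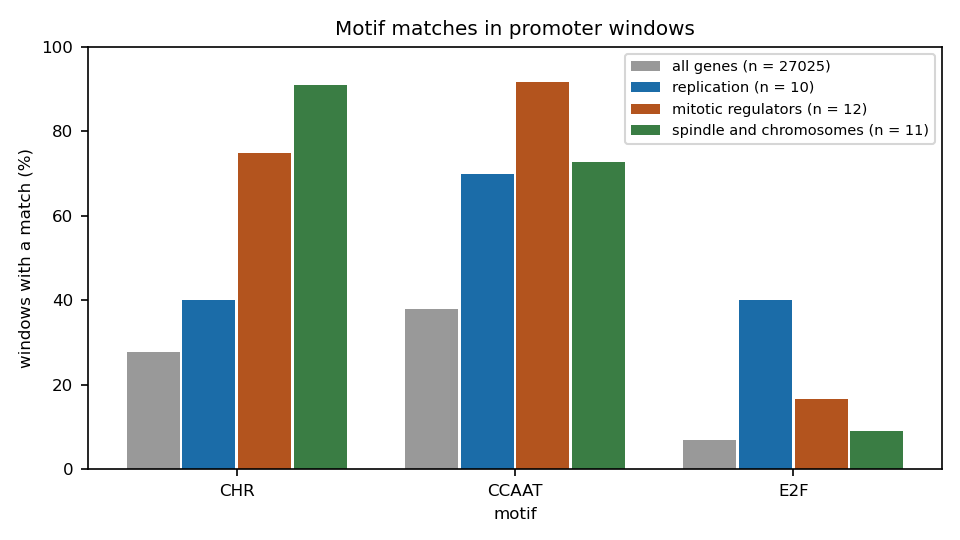
Share of promoter windows (vertical axis, percent) with at least 1 match of each motif (horizontal axis), for the windows of all 27025 genes and for the 10 replication, 12 mitotic and 11 spindle and chromosome genes with a window. CHR matches are in 90.9% of the spindle and chromosome windows and 27.8% of all windows, and E2F matches are most frequent among replication genes.

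Values below are log2 signals relative to the 75th percentile of the spots of the same array, which is set to 0. Values of different genes come from different probes and are not compared with each other. Differences are log2 changes ± SE from limma with 3 arrays per group, and a gene was called when its p, adjusted by Benjamini-Hochberg over all 26497 genes of the comparison, was under 0.05. Of the 41 genes 38 were above background on all 12 arrays. The exceptions were Ndc80 (11 arrays), Kif11 (9) and Top2a, which was above background on all 6-week arrays, on 2 of 3 wild-type arrays at 12 weeks and on no knockout array at 12 weeks.

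Some properties of the arrays touch every comparison. The 12 arrays lay on 2 slides. Slide 2 held the 12-week knockouts and replicate 3 of the 6-week knockouts, and slide 1 held the rest, the wild types of both ages among them. At 12 weeks slide and genotype therefore coincide, and a fit with slide as a block takes the slide effect from the 6-week knockouts alone. The second column of slide 1 held the wild types of 6 weeks and replicate 1 of those of 12 weeks, and every other array was in a first column. The share of spots above background was 65.9% to 76.2%, and it was highest on replicates 2 and 3 of the 12-week wild types. Il18 itself lay between 1.52 and 1.93 in wild type and between -0.31 and -0.16 in knockout (-1.85 ± 0.10 at 6 weeks, adjusted p = 2.3e-05, and -1.94 ± 0.10 at 12 weeks, 1.2e-05, limma).

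**Figure D2:**
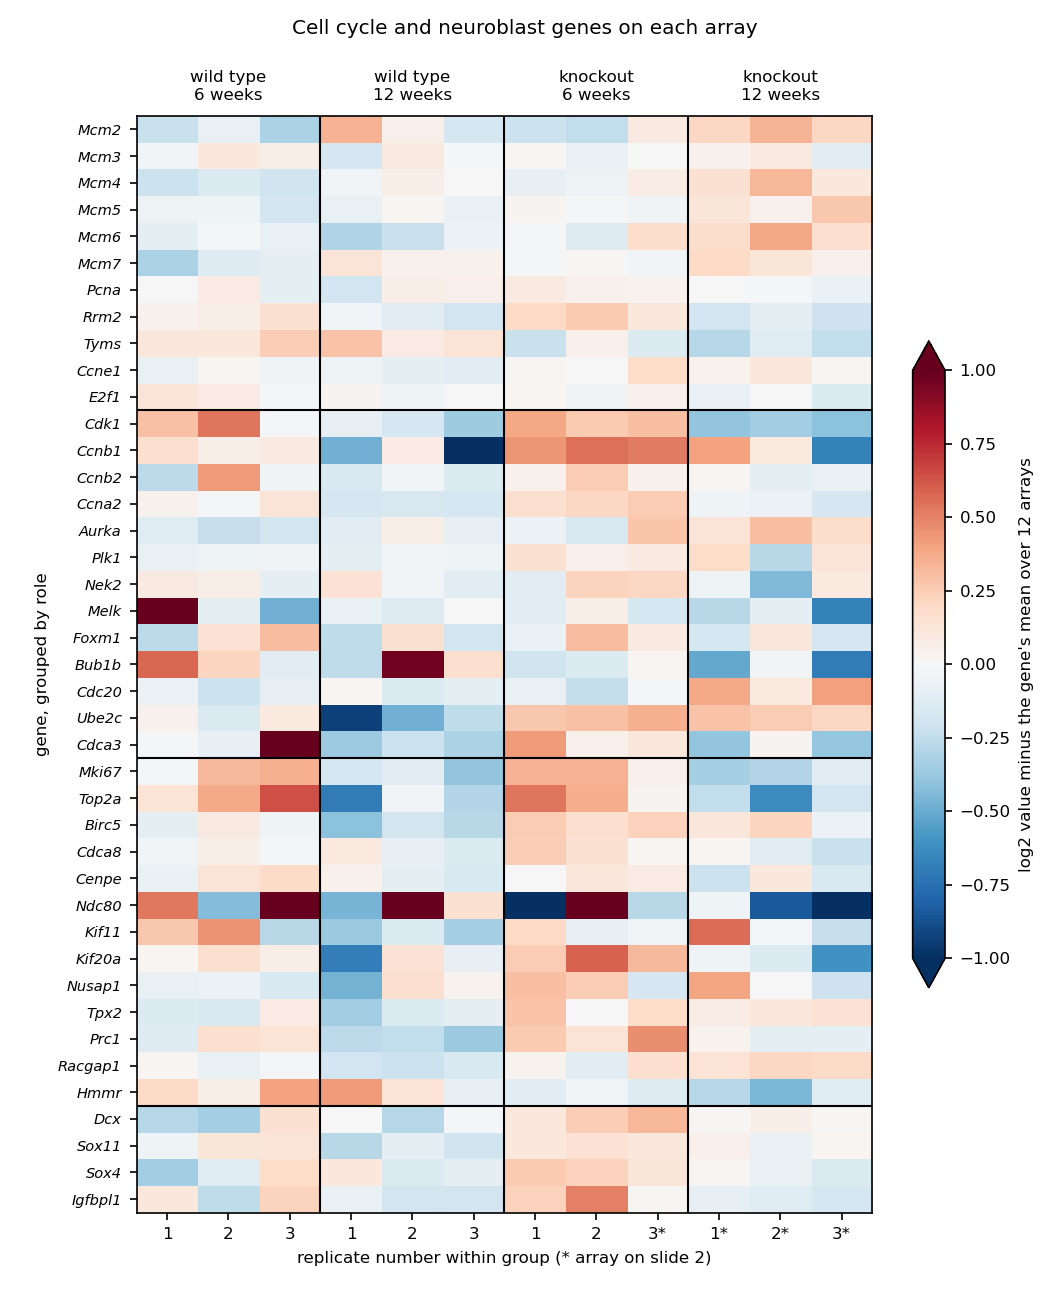
Each row is 1 of the 41 genes, ordered by role, and each column 1 of the 12 arrays, grouped by genotype and age, with arrays of slide 2 starred. Colour is the log2 value minus the mean of the gene over the 12 arrays, cut at -1 and 1. Rrm2, Cdk1, Ccna2, Mki67 and Top2a are redder at 6 and bluer at 12 weeks in both genotypes.

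The first question was what changed between 6 and 12 weeks of age. Over both genotypes 6 of the 41 genes were called lower and 0 higher, which is 14.6% of them, against 2.42% of all genes called in either direction, 0.981% downward and 1.44% upward. At an unadjusted p under 0.05 there were 13 lower and 4 higher, against 10.4% and 11.2% of all genes. Cdk1, Ccna2, Rrm2, Mki67 and Prc1 fell by 0.26 to 0.59 on the log2 scale. Top2a, the sixth, was kept only through the 6-week groups, where it was the brighter, so its call follows in part from that filter. Among the 38 genes above background on all 12 arrays 5 were called, all downward (3.39% of all such genes in either direction), and these were the 5 others. The 6 include the kinase that starts mitosis and its S-phase partner cyclin, the enzyme that makes deoxynucleotides, the standard marker of dividing cells, the topoisomerase that untangles chromosomes, and a protein of the central spindle. Of all 41 genes 34 had a lower mean at 12 weeks, 82.9% against 50.1% of all genes, and the median change was -0.13 against 0 for all genes. With normexp, a model-based background correction used in place of the scanner's own, 4 of the 41 were called. Rrm2, Mki67 and Prc1 remained called downward, and Mcm4, a subunit of the replicative helicase, was called upward (0.24 ± 0.06, adjusted p = 0.0451, limma). The comparison over both genotypes was added after the data were seen. With slide as a block 0 of the 41 were called (0.442% of all genes), with 2 up and 10 down at an unadjusted p under 0.05 and a median of -0.12. Leaving out any single array except wild-type 6-week replicate 1 and 6-week knockout replicate 3 gave a count of 1 to 3. The share of all genes called was then 0.506% to 1.94%. Without that knockout array, the only one of 6 weeks on slide 2, the count was 13 (17.1% of all genes). Of these, 5 went up and 8 down.

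In wild type alone limma called 0 of 41 genes for age (0.676% of all genes were called). At an unadjusted p under 0.05 there were 2 higher and 10 lower among the 41, against 8.36% and 6.44% of all genes, and 30 had a lower mean (49.8% of all genes). The groups lay wholly apart downward for 11 genes (12.2% of all genes did so) and upward for 3 (12.6%). In knockout limma called 3 of 41, all downward (2.18% of all genes in either direction, 0.981% downward): Cdk1, Rrm2 and Ccna2. A lower mean was seen for 31 (50.9% of all genes). There 4 were higher and 10 lower at an unadjusted p under 0.05, against 13.2% and 13.8% of all genes, and 15 lay wholly apart downward (14.5%) and 5 upward (11.9%). Without 6-week knockout replicate 1 or 2, or 12-week replicate 1 or 3, the count in knockout was 0 (0.0226% to 0.0944% of all genes). Without 6-week knockout replicate 3 it was 13, with 6 upward and 7 downward (28.1% of all genes). Both genotypes had a lower mean at 12 weeks for 26 of the 41 genes, where 25.5% of all genes did. Both lay wholly apart downward for 8 (2.03% of all genes), which were Rrm2, Cdk1, Ccna2, Cdca3, Mki67, Top2a, Prc1 and Sox11. For 5 of these, Rrm2, Cdk1, Ccna2, Mki67 and Top2a, all 6 arrays at 12 weeks lay below all 6 at 6 weeks (0.574% of all genes). Top2a was kept only through the 6-week groups, so its place in both counts follows in part from that filter.

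**Figure D3:**
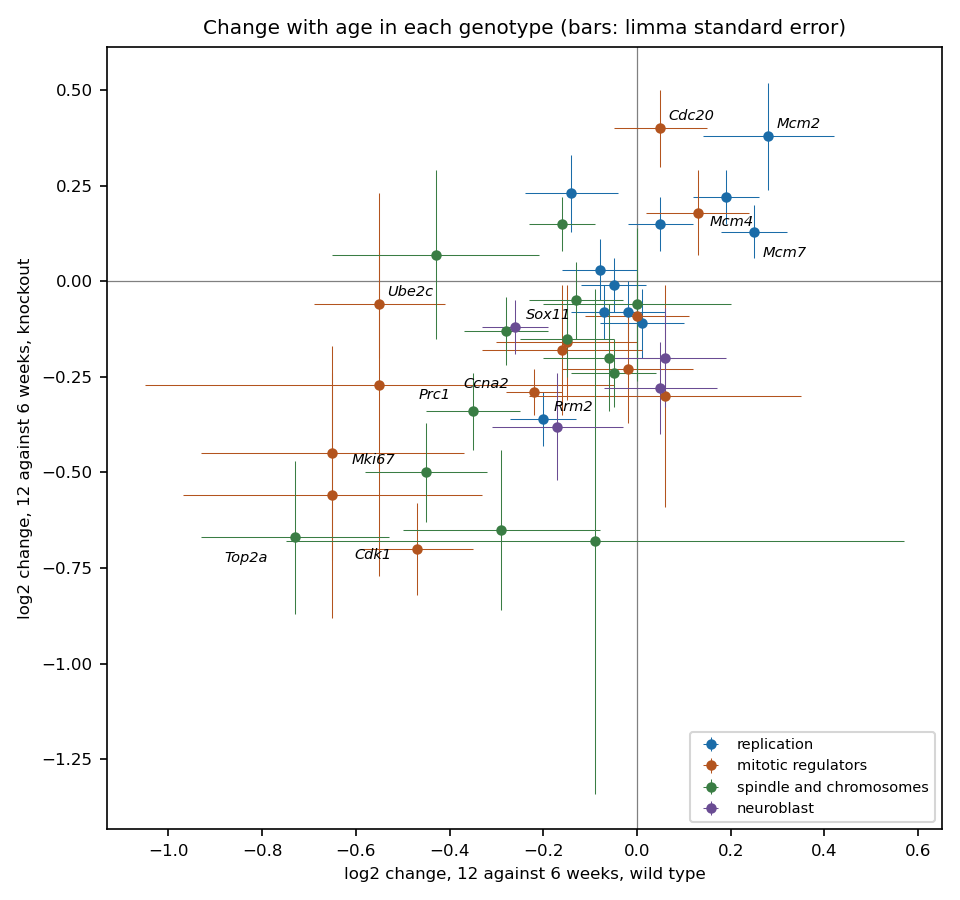
Log2 change from 6 to 12 weeks in wild type (horizontal axis) against knockout (vertical axis) for the 41 genes, coloured by role, with limma standard errors as bars. Cdk1, Top2a and Mki67 lie at the lower left, below 0 in both genotypes, and Mcm2, Mcm4 and Mcm7 at the upper right. The point of Top2a uses 12-week knockout values that were not above background.

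Among mitotic regulators, Cdk1, the kinase that drives entry into mitosis, had the smallest adjusted p of the 41 with age in knockout and over both genotypes. Its values were -4.96, -4.72 and -5.26 in wild type at 6 weeks and -5.33, -5.42 and -5.60 at 12 weeks. In knockout they were -4.87, -4.99 and -4.95 at 6 weeks and -5.65, -5.60 and -5.66 at 12 weeks. All 6 arrays at 12 weeks lay below all 6 at 6 weeks. The change was -0.47 ± 0.12 in wild type (adjusted p = 0.123, limma), -0.70 ± 0.12 in knockout (0.0344) and -0.59 ± 0.09 over both (0.0142), and -0.58 with slide as a block (0.0754). Over both genotypes it was the only one of the 6 calls that held with each of the 12 arrays left out in turn. With normexp correction the call was lost, at -0.11 over both genotypes (adjusted p = 0.306) and -0.05 in knockout (0.757). Other Cdk1 probes did not pass the filter, being above background on 4 and on 0 of the 12 arrays.

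Ccna2, cyclin A2, which pairs with Cdk2 and Cdk1 in DNA synthesis and early mitosis, was at -3.06, -3.12 and -2.98 in wild type at 6 weeks and -3.27, -3.26 and -3.28 at 12 weeks. In knockout it was at -2.95, -2.90 and -2.85, and then at -3.15, -3.16 and -3.27. Again no array at 12 weeks reached an array at 6 weeks. The change was -0.22 ± 0.06 in wild type (adjusted p = 0.144, limma), -0.29 ± 0.06 in knockout (0.0475) and -0.26 ± 0.04 over both (0.0232), with -0.28 and 0.0597 when slide was a block. With normexp correction it was -0.17 over both (0.0916) and -0.17 in knockout (0.169). Of the 13 mitotic regulators kept, 11 had a lower mean at 12 weeks over both genotypes and 2, Aurka and Cdc20, a higher one. The remaining regulators were not called: Ccnb1, cyclin B1, gave -0.61 ± 0.22 (adjusted p = 0.159), and Plk1, polo-like kinase, gave -0.04 ± 0.07 (0.762). Single arrays stood apart for Melk in wild-type 6-week replicate 1 (-1.87, others -4.59 to -3.85) and for Cdca3 in wild-type 6-week replicate 3 (-2.58, others -4.13 to -3.32), so their changes have wide errors.

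Every one of the 13 spindle and chromosome genes had a lower mean at 12 weeks over both genotypes, with a median of -0.18, and 3 were called, Top2a among them. Of the 13, Top2a, Kif11 and Ndc80 were not above background on every array. Top2a was kept only through the 6-week groups and Kif11 only through the 6-week knockouts, so their lower means may follow in part from that filter. Mki67, the proliferation antigen Ki-67 that coats mitotic chromosomes, was at -2.51, -2.17 and -2.14 in wild type at 6 weeks and at -2.68, -2.60 and -2.89 at 12 weeks. The knockouts had -2.15, -2.15 and -2.44, and then at -2.83, -2.79 and -2.61. The 12-week arrays lay below every 6-week array, and the changes were -0.45 ± 0.13 in wild type (adjusted p = 0.141, limma), -0.50 ± 0.13 in knockout (0.0623) and -0.47 ± 0.09 over both (0.029; -0.37 and 0.14 with slide as a block). A second Mki67 probe gave -0.80 ± 0.32 over both genotypes (adjusted p = 0.198), with wild-type 6-week replicate 3 at -0.74 and the other arrays between -3.37 and -2.49.

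Top2a, the topoisomerase of dividing cells, was at -5.20, -4.96 and -4.69 in wild type at 6 weeks and -6.04, -5.37 and -5.63 at 12 weeks. In knockout it was at -4.80, -4.97 and -5.31, and then at -5.59, -5.98 and -5.53, where no array was above background. The 12-week values thus lie near the limit of the measurement. For knockout the scanner's own background correction gave only a bound, at least 1.57-fold lower at 12 weeks, and no call (adjusted p = 0.0859, limma). With normexp correction the change in knockout was -0.18 ± 0.09 (0.204), smaller than that bound, so the bound depends on the correction. The call over both genotypes (adjusted p = 0.0382, with 0.186 for slide as a block and 0.0637 for normexp correction) pools the 12-week knockout values. Its size is therefore not given as a change.

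Prc1, which bundles microtubules of the central spindle, was named after its values were seen. It was at -2.53, -2.24 and -2.27 in wild type at 6 weeks and -2.66, -2.64 and -2.77 at 12 weeks. In knockout it was at -2.14, -2.27 and -1.94, and then at -2.36, -2.50 and -2.49. The ages lay apart within each genotype, but not across them. The change over both was -0.34 ± 0.07 (adjusted p = 0.0415, limma; -0.43 and 0.0588 with slide as a block).

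**Figure D4:**
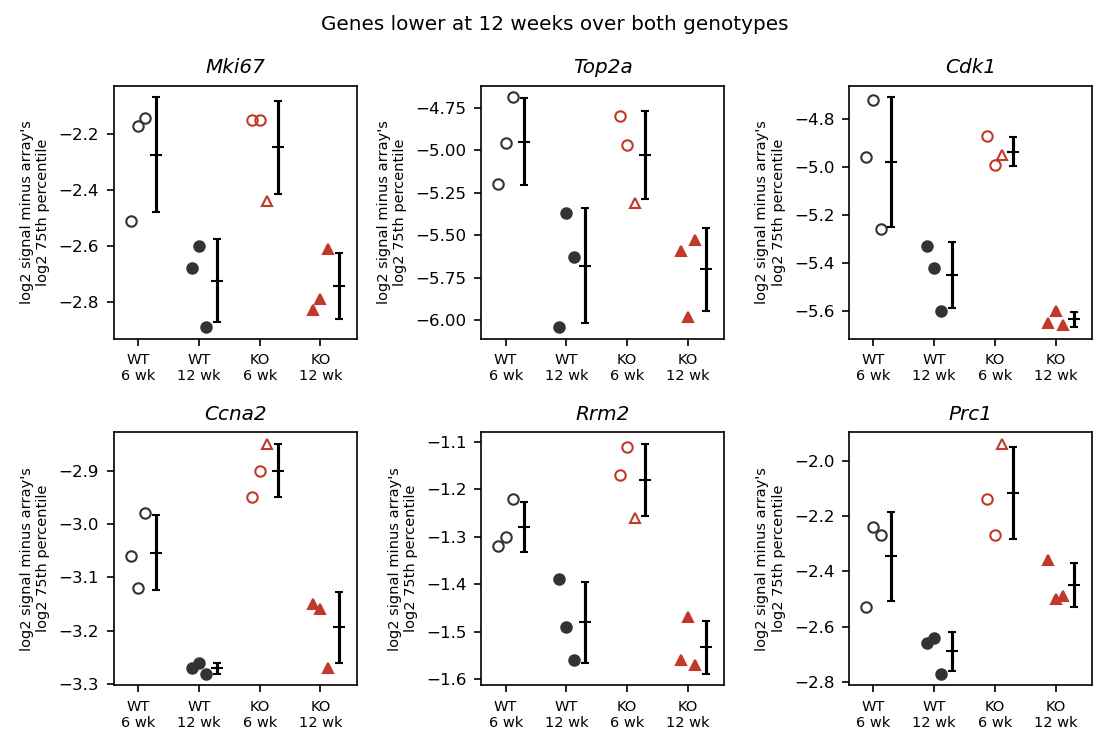
Log2 value (vertical axis, relative to the 75th percentile of the array) on each array for the 6 genes called over both genotypes, by group (horizontal axis). Open symbols are 6 weeks and filled symbols 12 weeks, black is wild type and red knockout, circles are slide 1 and triangles slide 2, and bars are mean and SD of 3 arrays. Top2a was not above background on any 12-week knockout array. For the 5 genes other than Prc1 every filled symbol lies below every open one.

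Replication genes did not move one way with age: 6 of 11 had a lower and 5 a higher mean at 12 weeks, with a median of -0.02, and Rrm2 alone was called. Rrm2, the small subunit of ribonucleotide reductase that supplies deoxynucleotides, was at -1.32, -1.30 and -1.22 in wild type at 6 weeks and -1.39, -1.49 and -1.56 at 12 weeks. The knockouts had -1.17, -1.11 and -1.26 at 6 weeks, and then at -1.56, -1.47 and -1.57. The ages did not overlap on any array. The change was -0.20 ± 0.07 in wild type (adjusted p = 0.22, limma), -0.36 ± 0.07 in knockout (0.0406) and -0.28 ± 0.05 over both (0.0242; -0.24 and 0.108 with slide as a block).

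Several subunits of the Mcm helicase, which unwinds DNA at replication origins, had higher means at 12 weeks, none of them called. Mcm4 was at 0.93, 1.01 and 0.94 in wild type at 6 weeks and 1.12, 1.20 and 1.13 at 12 weeks, and in knockout at 1.06, 1.09 and 1.21 and then 1.29, 1.47 and 1.25. The ages lay apart in each genotype, in the opposite direction to Cdk1 and Mki67. The change over both was 0.20 ± 0.05 for Mcm4 (adjusted p = 0.0686, limma), 0.19 ± 0.05 for Mcm7 (0.077) and 0.33 ± 0.10 for Mcm2 (0.0944). Mcm2 was at -2.02, -1.87 and -2.11, then -1.45, -1.75 and -1.97 in wild type, and at -2.02, -2.05 and -1.71, then -1.60, -1.46 and -1.59 in knockout. Its ages overlapped in wild type and lay apart in knockout. Mcm4 and Mcm7 were the members apart upward in both genotypes (2.44% of all genes were). Pcna, the sliding clamp of DNA polymerase, lay between 3.14 and 3.42 on all 12 arrays and gave -0.05 ± 0.06 (adjusted p = 0.637).

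None of the 4 neuroblast genes was called for age, and all 4 had a lower mean at 12 weeks over both genotypes (median -0.15). Sox11, a transcription factor of newborn neurons, was at -0.24, -0.07 and -0.06 in wild type at 6 weeks and -0.48, -0.30 and -0.40 at 12 weeks. Knockout values were -0.09, -0.05 and -0.08, and then at -0.14, -0.27 and -0.18. The ages lay apart within each genotype, and the change over both was -0.19 ± 0.05 (adjusted p = 0.077, limma). Igfbpl1, a secreted protein of neuroblasts, was at -2.37, -2.73 and -2.25, then -2.54, -2.65 and -2.66 in wild type, and at -2.24, -1.97 and -2.46, then -2.56, -2.60 and -2.65 in knockout (-0.28 ± 0.10, adjusted p = 0.145). Its ages overlapped in wild type. Dcx, the microtubule protein that defines migrating neuroblasts, gave -0.07 ± 0.09 (0.691) and Sox4 -0.11 ± 0.09 (0.486).

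The second question was what differed without interleukin-18. At 6 weeks limma called 0 of 41 genes, where 0.936% of all genes were called. At an unadjusted p under 0.05 there were 7 higher and 1 lower, against 11% and 7.46% of all genes. The median was 0.08 against 0.03, and 11 of 41 had a lower mean (42.9% of all genes). Knockout lay wholly above wild type for 9 genes (15.2% of all genes) and below for 2 (8.45%), Tyms and Hmmr.

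At 12 weeks limma called 8 of 41 genes, 6 upward and 2 downward. This is 19.5%, below the 33% of all genes called in that comparison (18.4% upward and 14.6% downward). Knockout lay wholly above wild type for 13 genes (29.1% of all genes) and below for 2 (23.3%), and the median was 0.05 against 0.02. With slide as a block 0 of 41 were called (0.117% of all genes), with 1 up and 0 down at an unadjusted p under 0.05. Without wild-type replicates 2 and 3, the arrays with the most spots above background, the median was 0.11, with 1 wild-type array left. The count of members called was 5 without wild-type replicate 2 (20.3% of all genes) or without knockout replicate 1 (19.7%). Median scaling, which moves the median of all genes to 0.13, gave 12 upward and 1 downward (34.8% of all genes). The comparisons at 12 weeks and with age share arrays, so they are not independent.

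Ube2c, the ubiquitin-conjugating enzyme that works with the anaphase-promoting complex to destroy mitotic cyclins, differed most in size among the calls at 12 weeks. It was at -3.56, -3.75 and -3.51 in wild type and -3.34, -3.31 and -3.25 in knockout at 6 weeks. At 12 weeks it was at -4.54, -4.09 and -3.86 in wild type and -3.32, -3.36 and -3.40 in knockout. All 6 knockout arrays lay above all 6 wild-type arrays. The difference was 0.31 ± 0.14 at 6 weeks (adjusted p = 0.28, limma) and 0.80 ± 0.14 at 12 weeks (0.00597), and 0.73 ± 0.27 at 12 weeks with slide as a block (0.565). With normexp correction it was 0.42 at 12 weeks (adjusted p = 0.00336). With age in wild type it gave -0.55 ± 0.14 (0.116). A block for slide column gave -0.93 (0.00935), which sets 12-week replicate 1 alone, the array where Ube2c is lowest, against the 6-week wild types.

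A second Ube2c probe separated the genotypes with less spread. It was at -4.20, -4.20 and -4.22 in wild type and -3.65, -3.79 and -3.69 in knockout at 6 weeks. At 12 weeks it was at -4.49, -4.54 and -4.47 and at -3.82, -3.93 and -3.96. Fitted over all kept probes, of which there were 37200, it rose by 0.50 ± 0.06 at 6 weeks (adjusted p = 0.0104, limma) and by 0.60 ± 0.06 at 12 weeks (0.00181). With slide as a block it gave 0.49 ± 0.07 at 6 weeks (0.0298) and 0.57 ± 0.11 at 12 weeks (0.194), and within slide 1 alone 0.49 ± 0.07 at 6 weeks (0.068). With slide column as a block, which at 6 weeks coincides with genotype on slide 1, it gave 0.51 ± 0.12 (0.223), where the first probe gave -0.25 ± 0.15 (0.816). With age over both genotypes the second probe fell by 0.24 ± 0.05 (adjusted p = 0.0353, limma) and the first gave -0.31 ± 0.10 (0.122). The second probe lost this call with slide as a block (-0.25 ± 0.05, 0.106) and with slide column as a block (-0.23 ± 0.06, 0.103). This probe was examined after the results of the first were known.

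The other mitotic regulator called at 12 weeks was Cdc20, the activator of the anaphase-promoting complex. It was at -1.53, -1.68 and -1.65 in wild type and -1.17, -1.45 and -1.14 in knockout at 12 weeks, and at -1.61, -1.76 and -1.63 against -1.62, -1.78 and -1.57 at 6 weeks. The genotypes lay apart at 12 weeks and overlapped at 6 weeks. The difference at 12 weeks was 0.37 ± 0.10 (adjusted p = 0.0186, limma; 0.23 and 0.767 with slide as a block), a call that held in 2 of the 6 fits with an array left out.

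Among the 13 spindle and chromosome genes 3 rose and 1 fell at 12 weeks, or 30.8%, close to the 33% of all genes called. Racgap1, a regulator of cytokinesis in the central spindle, was at -1.40, -1.42 and -1.36 in wild type and -1.07, -1.0 and -1.01 in knockout, and at -1.19, -1.28 and -1.22 against -1.17, -1.32 and -1.04 at 6 weeks. Its groups were apart at 12 weeks and overlapped at 6 weeks. The rise was 0.36 ± 0.07 (adjusted p = 0.00818, limma, with 0.16 and 0.733 for slide as a block). A second probe rose by 0.29 ± 0.09 (0.0317) and gave 0.05 ± 0.12 (0.939) with slide as a block.

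Birc5, survivin of the chromosomal passenger complex, was at -1.71, -1.49 and -1.58 in wild type and -1.19, -1.09 and -1.36 in knockout at 12 weeks, and at -1.39, -1.21 and -1.35 against -1.04, -1.14 and -1.07 at 6 weeks. Knockout was above wild type on every array at each age. It rose by 0.38 ± 0.09 at 12 weeks (adjusted p = 0.0115, limma; 0.36 and 0.62 with slide as a block). Its 2 other probes disagreed, with a rise of 0.66 ± 0.11 (0.00625) and a value of -0.15 ± 0.28 (0.713). With slide as a block the probe that rose gave 0.55 ± 0.20 (adjusted p = 0.601, limma).

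Tpx2, which activates the Aurora A kinase on the spindle, was at -3.67, -3.46 and -3.42 in wild type and -3.24, -3.22 and -3.17 in knockout at 12 weeks, and at -3.45, -3.47 and -3.23 against -3.03, -3.31 and -3.14 at 6 weeks. The groups were apart at 12 weeks and overlapped at 6 weeks. It rose by 0.31 ± 0.10 at 12 weeks (adjusted p = 0.0382, limma; 0.27 and 0.739 with slide as a block, and 0.16 and 0.108 with normexp correction), a call that held in 1 of the 6 fits with an array left out, and its second probe gave -0.19 (0.349). Hmmr, a hyaluronan receptor that binds spindle microtubules, was at -0.86, -1.15 and -1.37 in wild type and -1.57, -1.75 and -1.41 in knockout at 12 weeks, and at -1.10, -1.23 and -0.89 against -1.39, -1.31 and -1.42 at 6 weeks. Knockout was the lower at each age, with no overlap. It fell by 0.45 ± 0.14 at 12 weeks (adjusted p = 0.0317, limma; -0.38 and 0.739 with slide as a block), a call that held in 2 of 6 such fits.

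Of the 11 replication genes 1 rose and 1 fell at 12 weeks, or 18.2%, below the 33% of all genes. Mcm6, a helicase subunit, was at 0.94, 1.02 and 1.17 in wild type and 1.41, 1.62 and 1.40 in knockout at 12 weeks, and at 1.15, 1.23 and 1.16 against 1.22, 1.11 and 1.41 at 6 weeks. The genotypes were apart at 12 weeks and overlapped at 6 weeks, where knockout replicate 3, on slide 2, was the highest array. It rose by 0.43 ± 0.10 at 12 weeks (adjusted p = 0.0106, limma; 0.19 and 0.78 with slide as a block). Tyms, thymidylate synthase, was at -2.37, -2.58 and -2.52 in wild type and -2.95, -2.78 and -2.90 in knockout at 12 weeks, and at -2.55, -2.55 and -2.41 against -2.88, -2.61 and -2.80 at 6 weeks. Knockout was below wild type on every array at each age. It fell by 0.38 ± 0.09 at 12 weeks (adjusted p = 0.0124, limma; -0.33 and 0.658 with slide as a block, and -0.21 and 0.0736 with normexp correction).

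**Figure D5:**
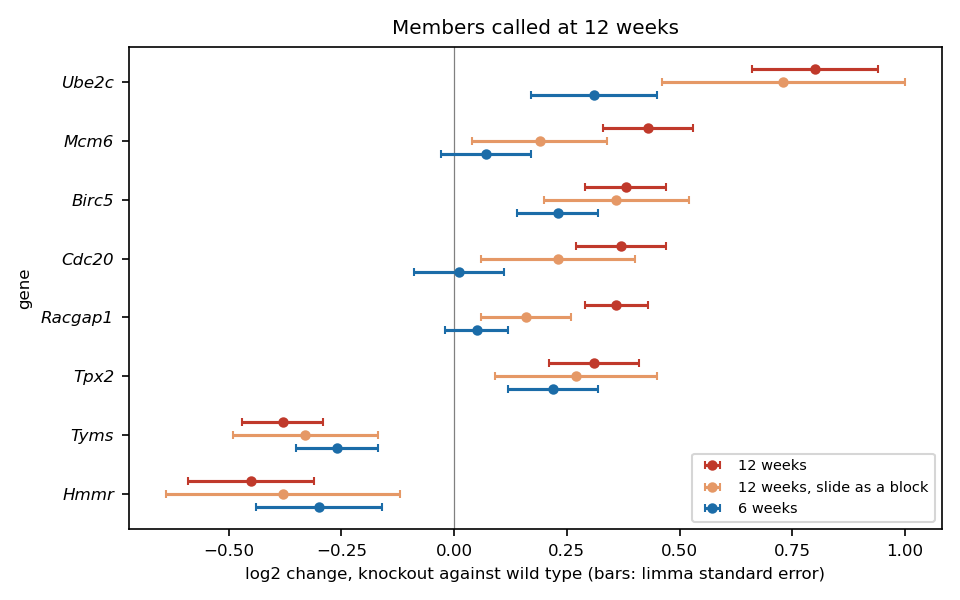
Log2 change of knockout against wild type (horizontal axis, bars are limma standard errors) for the 8 genes called at 12 weeks, at 12 weeks, at 12 weeks with slide as a block, and at 6 weeks. With the block the bars widen, and the change shrinks from 0.43 to 0.19 for Mcm6 and from 0.80 to 0.73 for Ube2c.

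None of the 6 genes called lower with age was called for genotype at either age. Prc1 gave 0.23 ± 0.10 at 6 weeks (adjusted p = 0.265, limma) and 0.24 ± 0.10 at 12 weeks (0.0919), with the genotypes apart at 12 weeks. Ccna2 gave 0.15 ± 0.06 (0.233) and 0.08 ± 0.06 (0.351), with the genotypes apart at 6 weeks. The second Ube2c probe, in contrast, was called for age over both genotypes and for genotype at both ages. Its age call was lost with slide or slide column as a block. Its genotype calls were lost with slide column as a block at 6 weeks and with slide as a block at 12 weeks. Mki67 gave 0.03 ± 0.13 at 6 weeks (adjusted p = 0.923, limma) and -0.02 ± 0.13 at 12 weeks (0.916), and Cdk1 gave 0.04 ± 0.12 (0.872) and -0.19 ± 0.12 (0.267). Of the neuroblast genes, Dcx was at -0.61, -0.67 and -0.18 in wild type and -0.22, -0.09 and 0.00 in knockout at 6 weeks, and at -0.34, -0.61 and -0.34 against -0.32, -0.26 and -0.32 at 12 weeks. Wild-type replicate 3 overlapped the knockouts at 6 weeks. The difference was 0.38 ± 0.13 at 6 weeks (0.169) and 0.13 ± 0.13 at 12 weeks (0.453), and a second Dcx probe gave -0.46 at 6 weeks (0.331). Sox4, a relative of Sox11, was at 1.29, 1.52 and 1.82 against 1.90, 1.87 and 1.76 at 6 weeks, and at 1.75, 1.5 and 1.55 against 1.65, 1.56 and 1.5 at 12 weeks. Its groups overlapped at both ages (0.30 ± 0.12, adjusted p = 0.234, and -0.03 ± 0.12, 0.874).

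The test of whether the effect of genotype differed between ages, which is also the test of whether age acted differently in the genotypes, called 0 of 41 genes (0.238% of all genes). At an unadjusted p under 0.05 there were 4 upward and 0 downward, against 9.19% and 10.5% of all genes: Mcm6, Cdc20, Ube2c and Racgap1, with adjusted p between 0.174 and 0.224 (limma). For Ube2c it was 0.49 ± 0.20 (0.224). A block for slide column gave 0.87 (0.0454), which again rests on wild-type 12-week replicate 1 alone. For Cdk1, Ccna2, Rrm2, Mki67 and Prc1 it ran from -0.23 for Cdk1 (0.468) to 0.01 for Prc1 (0.972).

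Of 86 other cell cycle genes 75 were kept. With age over both genotypes 1 rose and 0 fell (1.44% and 0.981% of all genes), with a median of -0.01: Pold1, the catalytic subunit of a DNA polymerase, rose by 0.24 ± 0.05 (adjusted p = 0.0384, limma; 0.20 and 0.146 with slide as a block). In knockout with age 1 rose, Pold1, and 1 fell, Pbk, a mitotic kinase (-0.99 ± 0.22, adjusted p = 0.0489, limma). Together they are 2.67% of the 75, near the 2.18% of all genes called. In wild type 0 of 75 were called (0.676% of all genes). There 8 were higher and 7 lower at an unadjusted p under 0.05, against 8.36% and 6.44% of all genes. Between genotypes at 6 weeks 1 rose and 2 fell (0.936% of all genes were called). Ccnd1, cyclin D1, which starts the cycle, was between 1.73 and 2.06 in wild type and between 1.01 and 1.20 in knockout over both ages. It fell by 0.71 ± 0.07 at 6 weeks (0.000999; -0.71 and 0.0043 with slide as a block) and by 0.91 ± 0.07 at 12 weeks (0.000111; -0.92 and 0.0278). Cdkn1a, the cyclin-dependent kinase inhibitor p21, was between -0.69 and -0.02 in wild type and between 0.36 and 0.99 in knockout. It rose by 1.10 ± 0.17 at 6 weeks (0.0177; 0.90 and 0.0244 with slide as a block) and by 0.89 ± 0.17 at 12 weeks (0.00676; 0.28 and 0.759). Cdc45, a helicase cofactor, fell by 0.46 ± 0.09 at 6 weeks (0.0476; -0.42 and 0.0988 with slide as a block). Every wild-type array of 6 weeks was in a second slide column and every 6-week knockout array in a first. Genotype and column thus coincide at that age, and blocking by slide cannot separate them. When column was blocked in place of slide, 1 of the 75 rose and 1 fell at 6 weeks. The column effect then came from the 12-week wild types alone, with only their replicate 1 in the second column. At 12 weeks 12 of 75 rose and 7 fell, or 25.3%, below the 33% of all genes called. With slide as a block 0 rose and 1 fell.

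Of 39 further genes of the neurogenic niches, 2 rose and 1 fell with age over both genotypes (1.44% and 0.981% of all genes), with a median of -0.03. A lower mean was seen for 21 of them and a higher one for 18. Marcksl1, an actin regulator of young neurons, fell by 0.31 ± 0.06 (adjusted p = 0.0325, limma; -0.35 and 0.0911 with slide as a block), and Sox1, of neural stem cells, rose by 0.23 ± 0.05 (0.0442; 0.15 and 0.13). Dpysl5, another gene of this list, lay higher at 12 weeks in each genotype. It was at 0.99, 1.12 and 1.15, then 1.3, 1.43 and 1.33 in wild type. Its knockout values were 1.38, 1.34 and 1.29, then 1.54, 1.47 and 1.48. Between genotypes 0 of 39 were called at 6 weeks, with 7 up and 0 down at an unadjusted p under 0.05, where 11% and 7.46% of all genes were. At 12 weeks 5 rose and 5 fell, or 25.6%, below the 33% of all genes called, among them Nes, nestin of stem cells (0.55 ± 0.09, 0.00541), and Neurod1, of newborn neurons (-1.07 ± 0.22, 0.00845). With slide as a block 0 of the 39 were called at 12 weeks, with 1 up and 1 down at an unadjusted p under 0.05.

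Genes of other cells that divide or could enter the sample are given for the same comparison of age over both genotypes. Of 12 genes of oligodendrocyte precursors and newly formed oligodendrocytes 3 fell and 0 rose (0.981% and 1.44% of all genes). A lower mean was seen for 8 of them and a higher one for 4. The precursor genes Pdgfra and Cspg4 were not called. Pdgfra lay between 0.59 and 0.87 on all 12 arrays. Cspg4 lay between -0.50 and -0.25, then -0.30 and -0.01 in wild type, and between -0.46 and -0.16, then -0.05 and 0.05 in knockout. Enpp6, a marker of newly formed oligodendrocytes, fell by 0.77 ± 0.09 (adjusted p = 0.0045, limma; -0.76 and 0.0289 with slide as a block). Gpr17, of committed precursors, fell by 0.38 ± 0.07 (0.0317; -0.49 and 0.0275), and Neu4, a sialidase, fell by 0.44 ± 0.08 (0.0256; -0.36 and 0.127). The summed linear level of these 12 genes, in units of the 75th percentile of the array, was 33.6 to 35.5 in wild type at 6 weeks and 32.4 to 34.0 at 12 weeks, and 37.6 to 43.9 and 36.1 to 37.7 in knockout. The sum of the 13 spindle and chromosome genes was 2.51 to 2.78 and then 2.20 to 2.41 in wild type, and 2.70 to 2.74 and then 2.36 to 2.46 in knockout, with no overlap between ages. The sum of all 41 genes overlapped between ages in both genotypes (30.3 to 32.0 and 30.1 to 31.4 in wild type, 33.1 to 34.0 and 31.7 to 33.4 in knockout), as did that of the replication genes. The sum of the mitotic regulators was 1.58 to 1.75 and then 1.44 to 1.56 in wild type, and overlapped in knockout (1.65 to 1.74 and 1.61 to 1.71). That of the neuroblast genes overlapped in wild type (4.14 to 5.59 and 4.45 to 5.04) and lay apart in knockout (5.52 to 5.83 and 4.67 to 5.02). Such sums add signals of different probes and weigh the brightest most, so overlap or separation may rest on few genes.

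Of 10 microglial genes 0 were called with age over both genotypes and 2 had an unadjusted p under 0.05, with summed levels of 106 to 111 and 94.4 to 105 in wild type and 100 to 118 and 111 to 117 in knockout. Of 11 blood cell genes 0 were called and 5 had an unadjusted p under 0.05, all upward, with sums of 55.5 to 72.6 and 66.5 to 93.2 in wild type and 61.3 to 87.9 and 97.1 to 157 in knockout. Of all genes, 11.2% were higher and 10.4% lower with age over both genotypes at an unadjusted p under 0.05. All microglial and blood genes kept were above background on all 12 arrays. Of 12 olfactory bulb genes 1 rose (1.44% of all genes), Tbx21, of mitral cells (0.92 ± 0.21, 0.0499). At 12 weeks 4 of 10 microglial and 5 of 11 blood genes rose in knockout, beside the 6 cell cycle genes that rose there and 18.4% of all genes. With slide as a block 0 microglial and 0 blood genes were called at 12 weeks, and 0 and 6 were higher at an unadjusted p under 0.05. The part of these cells in the results was not tested.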

How the data were processed

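Total RNA of 12 whole brains was labelled with Cy3 and hybridised to 1-colour arrays, per the labels' protocols. The authors deposited a scan file per array, for which the submitters' processing notes name Agilent Feature Extraction 10.7.3.1. Its signal columns are fluorescence intensity, and the other deposited values used, 0 or 1 per the file headers, mark spots above background, saturated or outlying. A value table was deposited as well, in intensity units, and differed from the processed signal by at most 0.498%.

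None of the spots was saturated, and 107 to 220 outlier spots per array were left out. Processed signals were taken as log2, set relative to the array's 75th percentile (887 to 1183 intensity units) and averaged per probe. A probe stayed if the scanner marked it well above background throughout at least 1 group (37200 did), and the brightest probe of each gene name was used (26497 genes).

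Genes were tested in limma 3.58.1 (R 4.3.3). The functions lmFit and eBayes fitted each group's mean on 12 arrays, which leaves 8 residual degrees of freedom. Tests were two-sided, with Benjamini-Hochberg adjustment over all genes of each comparison and a threshold of 0.05. The number of arrays limits the precision. The script was tested on simulated data.

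The genes and lists were chosen with earlier results of these data known. Values on every array are given for up to 4 genes per role with the smallest adjusted p in any of 5 comparisons, and for Mki67, Top2a, Mcm2, Pcna, Dcx and Sox11. For other lists up to 4 called genes per comparison were eligible. The age comparison over both genotypes, the fit without wild-type 12-week replicates 2 and 3, and the fits of second probes were added after seeing the data. Without those replicates the remaining array of its group is assumed to vary like the other groups. Where no array of a group was above background, the lowest signal so marked on each array gave a bound, written as at least N-fold. Such a bound holds for the scanner's own background correction only. Alternatives were slide as a fixed or random block, slide column or replicate number as a block, 1 slide only, normexp correction, quantile or median scaling, the deposited table, other filters and fits, and each array left out.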

Additional observations from a re-analysis of the deposited data

How the results depend on the processing

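In the comparisons where a named cell cycle or neuroblast gene was called, its sign did not reverse under any alternative run. Of 131 counts of called genes recomputed, 89 stayed within 1.5 times the main count and 42 did not. The 89 include every count of 0 where the main count was also 0, so they say little about comparisons with calls. For age in knockout, where 3 were called, 0 were called with slide as a block, fixed or random, with slide 2 alone, without a filter on dim probes, with only the groups compared or with a replicate block, and 1 with normexp, quantile or median scaling. For age over both genotypes, where 6 were called, it was 0 with slide as a block, 3 with slide column as a block or median scaling, and 1 with no filter on dim probes, with a replicate block or without wild-type 12-week replicates 2 and 3. For genotype at 12 weeks, where 8 were called, it was 0 with either slide block, 13 with median scaling and 1 without those replicates. For age in wild type and for the interaction of genotype and age, where 0 were called, 1 was called, Ube2c, with slide column as a block and also without those replicates; both fits take the wild-type age change from 12-week replicate 1 alone and are not separate evidence. With 1 array left out the counts ran from 0 to 0 for genotype at 6 weeks, 5 to 7 at 12 weeks, 0 to 0 for age in wild type, 0 to 13 for age in knockout, 0 to 2 for the interaction and 1 to 13 for age over both genotypes. The highest counts, 13, 2 and 13, came without 6-week knockout replicate 3, the only 6-week array on slide 2, where 28.1%, 17.9% and 17.1% of all genes were called. The 13 in knockout were 6 upward and 7 downward, and the 13 over both genotypes 5 upward and 8 downward. In the other left-out fits of age over both genotypes the count stayed above 3 only without wild-type 6-week replicate 1. In knockout it was 0 without 6-week replicate 1 or 2 or 12-week replicate 1 or 3. The cause of these changes was not tested. The replicate block left the counts at 0 for genotype at 6 weeks and 8 at 12 weeks, and at 0 for age in wild type and for the interaction. No pairing by replicate number was seen, though 3 arrays per group cannot exclude it. Same-numbered arrays of different groups correlated between -0.20 and 0.11, and different-numbered ones between -0.15 and 0.18. Of the 12 arrays 2 correlated best with their own number. Median scaling moved the median of all genes to 0.13 for genotype at each age, from 0.03 and 0.02, so its 12 rises and 1 fall at 12 weeks are relative to that shift. Of 1100 values of single genes, 923 stayed on the same side of the threshold, 169 lost the call and 8 gained one. The 923 include genes not called in either fit, whatever their sign. Signals near background limit Top2a, Kif11 and Ndc80. Cdk1 was above background on all 12 arrays, but its age calls did not hold with normexp background correction.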
